A study of Mus musculus with 2 samples.

Results

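TEC is the class that the GENCODE gene annotation gives to loci backed by clustered cDNA tags whose coding potential still awaits experimental test. This account covers the TEC genes with the most reads in nucleoplasmic RNA of mouse macrophages. A gene was taken when all its annotated transcripts had class TEC and its expected count, averaged over both libraries, was at least 300. The rule kept 149 of the 3213 genes of class TEC only, out of 55536 annotated genes. The genes were thus chosen by their expected counts, so their high level is a description and no finding. Another 3064 TEC genes lay under the limit, 466 of them at a mean of 50 or more, and 1499 TEC genes had no count in either library. Just inside the limit, Gm47588 had 351 counts in replicate 1 and 255 in replicate 2, Gm37534 had 306 and 300, and Gm43721 had 439 and 162. Just outside it, Gm37115 had 374 and 220, Gm38386 had 302 and 287, and Gm48582 had 405 and 182.

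The cells were primary macrophages grown from bone marrow of the C57BL/6J mouse strain. They were given Lipid A, the part of bacterial lipopolysaccharide that Toll-like receptor signalling responds to, at 100 ng/ml for 30 min. The study made 1 group of 2 libraries of ribosome-depleted total RNA, and no unstimulated sample was analysed here, so no level below can be called a response. Sample descriptions call the fraction nucleoplasmic, whereas other labels name the nucleus. Age and sex are not given by the labels. Both libraries cite 1 donor entry but separate biosamples, and no label beyond the word biological speaks of separate cultures. The spread between them may therefore be technical.

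TEC models are mostly unspliced, and many sit in introns of known genes. Introns are normally cut out while a gene is transcribed and are broken down inside the nucleus, so nuclear RNA holds far more intronic sequence than cytoplasmic RNA. Reads in a TEC model may therefore come from a transcript of its own, from a host gene's RNA before splicing, or from a host transcript that keeps the intron or ends in it. For genes in introns these sources cannot be told apart in these tables.

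The libraries held 15846212 expected counts on annotated genes in replicate 1 and 14874879 in replicate 2. Replicate 1 started from 1 µg of RNA and replicate 2 from 500 ng. Mitochondrially encoded genes took 2.18% of the counts in replicate 1 and 6.14% in replicate 2. All 10 macrophage markers were at 1 TPM (the tables' unit of level per transcript length) or more, summing to 2678 TPM in replicate 1 and 3409 TPM in replicate 2. Summed levels of 5 B cell markers were 0.31 and 0.41 TPM, of 5 T cell markers 0.16 and 0.23, of 5 neutrophil markers 3.89 and 7.71, of 5 fibroblast markers 0.4 and 0.17, and of 5 dendritic cell markers 1.78 and 2.16. Cd79a of the B cell list and Cd2, Cd3e and Cd3g of the T cell list were at 0 TPM in both libraries.

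The models were long and unspliced. All 149 have 1 exon, with a median length of 3045 bases and a range from 872 to 30942. The beginnings of the 2 most abundant ones are shown because the results return to them most often. Both are given 5′ to 3′ on the strand of the gene, from the GENCODE M21 transcripts on mm10. The first lies at chr1:131092090-131092149 on the minus strand and the second at chr7:90145948-90146007 on the plus strand.
Gm37084, start: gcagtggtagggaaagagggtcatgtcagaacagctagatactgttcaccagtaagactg
Gm45222, start: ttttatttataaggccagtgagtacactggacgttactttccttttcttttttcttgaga

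Cleavage and polyadenylation of most messenger RNAs is guided by the hexamer AATAAA shortly before the end. This hexamer, sought on the gene's own strand in the last 50 bases, was present in 25 of the 149 models, or 16.8%. The share was 22.1% of TEC transcripts of other genes, 29.7% of lincRNA transcripts and 39.6% of protein-coding transcripts, the last pair of sets taken from genes at 300 or more counts. The variant ATTAAA, sought in the same way, was in 4 of the 149, or 2.68%, against 8.90% of other TEC transcripts. A run of 8 or more A in the last 30 bases occurred in 3 of them, a share of 2.01% beside 2.19%. A match is a string of letters and no proof of use. The last 60 bases of 4 models with AATAAA follow, the hexamer in capitals, together with the end of Gm37084, which has none.
Gm45222, chr7:90150195-90150254, plus strand: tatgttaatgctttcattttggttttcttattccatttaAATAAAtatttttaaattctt
Gm38091, chr9:89259525-89259584, minus strand: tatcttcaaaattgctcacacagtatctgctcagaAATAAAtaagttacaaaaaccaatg
Gm36638, chr13:101749720-101749779, minus strand: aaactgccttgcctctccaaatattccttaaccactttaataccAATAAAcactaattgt
Gm37558, chr3:69119742-69119801, minus strand: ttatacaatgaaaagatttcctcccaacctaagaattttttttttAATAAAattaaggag
Gm37084, chr1:131086252-131086311, minus strand: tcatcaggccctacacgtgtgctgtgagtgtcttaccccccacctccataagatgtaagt

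Open reading frames were short. The longest frame from an ATG to a stop on the gene's strand had a median of 77 codons and reached 222 codons in 4932442E05Rik. The median was 72 codons in TEC genes at 50 to under 300 counts and 67 codons in all other TEC genes, whose models were also shorter, at median lengths of 2320.5 and 1893.5 bases. GC content had a median of 41.7%, beside 42.1% and 42.3% in those sets.

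Together the 149 genes took 216994.53 expected counts in replicate 1, or 1.37% of the library (95% Wilson interval 1.364% to 1.375%). In replicate 2 they took 127578.68 counts, or 0.858% (0.853% to 0.862%). The mean share was 1.11% ± 0.362 (SD, n = 2), and the intervals, which cover counting error only, do not overlap. Per length their share was lower, at 0.456% of TPM in replicate 1 and 0.223% in replicate 2. A single gene, Gm37084, held 17.8% of the members' counts in replicate 1 and 15.2% in replicate 2, and the 15 highest held 47.3% and 43.5%. Mean TPM of the 149 ranged from 2.51 to 280.7 with a median of 13.4, and all of them were at 1 TPM or more in both libraries.

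**Figure D1:**
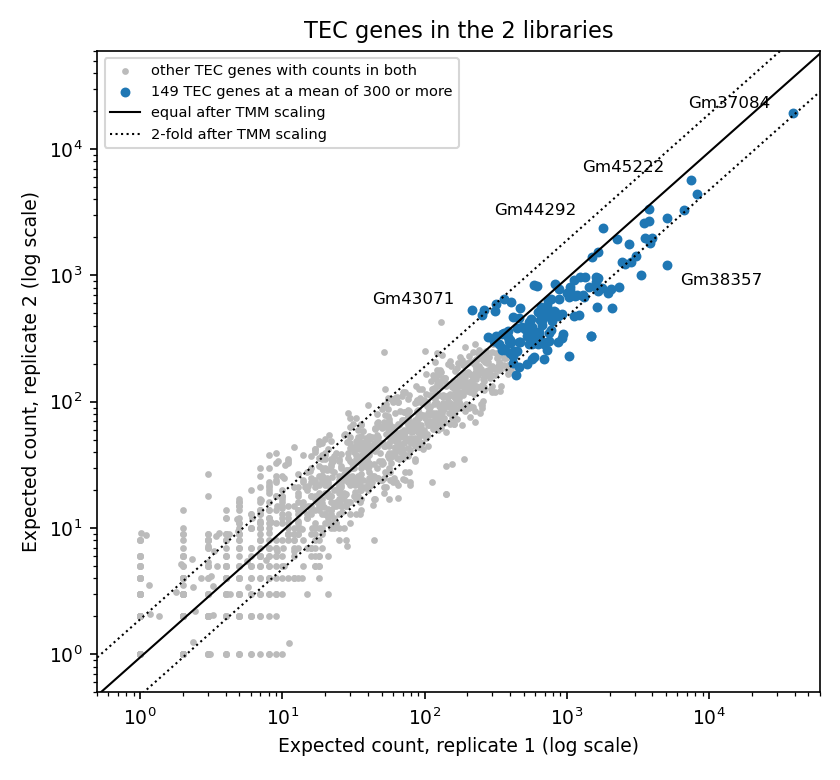
Expected counts of TEC genes in replicate 1 (x axis) and replicate 2 (y axis), both on log scales, with the 149 genes in blue and other TEC genes with counts in both libraries in grey; the solid line marks equality after TMM scaling and the dotted lines 2-fold. Most blue points lie below the solid line, Gm37084 stands apart at 38605 and 19412 counts, and Gm38357 falls below the lower dotted line.

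Gm37084, the most abundant TEC gene, had 38605 counts in replicate 1 and 19412 in replicate 2. It spans chr1:131086252-131092149 on the minus strand and lies whole within the first of 9 introns of Mapkapk2, overlapping no annotated exon. Mapkapk2 encodes the kinase MK2, which acts below p38 MAP kinase and helps stabilise cytokine messenger RNAs. Its TPM was 397.8 in replicate 1 and 163.5 in replicate 2, whereas Mapkapk2 itself had 281.1 and 74.7. The TEC gene was thus above its host in both libraries, by 1.42 and 2.19 times, and both were lower in replicate 2.

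Picalm, which encodes a clathrin assembly protein of endocytosis, held 4 of the genes on the plus strand of chromosome 7. Gm45223 had 8257 counts in replicate 1 and 4427 in replicate 2 and starts 2279 bases into the gene. Gm45222, with 7442 and 5677 counts, lies 15735 bases in, within the same first intron. Gm45221 had 3532 and 1967 counts in intron 13, and Gm45220 had 1959 and 725 in intron 20, the last. In TPM the first 3 were near one another in replicate 1, at 98.3, 106.6 and 101.0, and the last was at 50.2. In replicate 2 they were at 43.0, 66.4, 45.6 and 15.1, again lowest for the one farthest from the start. Picalm itself was at 453.6 and 219.0 TPM.

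Itpkb, a kinase of soluble inositol phosphates, held Gm37033, Gm37390 and Gm36933, all in its second intron. Gm37033 had 6660 counts in replicate 1 and 3268 in replicate 2, Gm36933 had 2829 and 1270, and the shortest of the 149, Gm37390 with 872 bases, had 924 and 321. Dleu2, a long non-coding RNA gene that hosts a microRNA cluster, held Gm37472 with 5096 and 2867 counts and Gm37420 with 2716 and 1775. Gm37420 also faces Gm27017 on the other strand. All 5 were lower in replicate 2 than in replicate 1, as were their hosts, by log2 ratios of -1.13 for Itpkb and -0.50 for Dleu2 after scaling. The ratio of TPM was -1.50 for Itpkb and -1.35 for Dleu2, where the median of all genes at 300 or more counts was -0.54. The difference of Gm37472 from Dleu2 was -0.25 by scaled counts but 0.23 by TPM.

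Noct encodes nocturnin, a phosphatase whose gene is rhythmic and quickly induced in several cell types. Gm38357 in its first intron had 5087 counts in replicate 1 and 1217 in replicate 2. In TPM it was at 133.0 and 25.8, above Noct at 95.9 and 19.0 in both libraries by 1.39 and 1.36 times. By scaled expected counts the fall from replicate 1 to 2 had nearly the same size in both, with log2 ratios of -1.98 for Gm38357 and -2.02 for Noct. By estimated counts, a second quantification of the reads, it did not. There Gm38357 was at -1.78, and its difference from Noct was -1.07.

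Another 3 of the 15 highest lay in introns of Ptprc, Mbnl1 and Nfkb1. A130071D04Rik, with 3801 counts in replicate 1 and 2687 in replicate 2, lies in the second intron of Ptprc, the leukocyte surface phosphatase CD45. Gm37589 had 3503 and 2609 counts in Mbnl1, a regulator of alternative splicing. Gm43430 had 3083 and 1420 counts in intron 6 of Nfkb1, which encodes a subunit of NF-kB, and its TPM of 49.1 and 18.4 came to 0.68 and 0.66 of the host's 72.6 and 28.1. In each of these 3 the TEC gene was below its host in TPM in both libraries.

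For 3 more of the 15 highest genes the annotation overlaps another gene's exons or strand, so the level is uncertain. Gm42793, with 3799.39 counts in replicate 1 and 3372.56 in replicate 2, begins 3 bases from the start of Spp1, the gene of secreted osteopontin, and covers exon sequence of it. Its TPM of 217.0 and 154.4 compares with 651.0 and 694.5 for Spp1. AC167363.2 had 3957.30 and 1987.04 counts opposite Cdkn1a, the inhibitor of cyclin-dependent kinases known as p21. Its TPM was 283.0 and 113.3 beside 422.4 and 344.3 for Cdkn1a, and whether counting used strand is not given. Gm43323, with 3853 and 1808 counts, overlaps an exon of a coding transcript of Rbm47, an RNA-binding protein gene. Gm42793 and AC167363.2 have counts with decimals, which come from sharing reads out between transcripts. Exactly whole counts in both libraries were found in 135 of the 149, but an even split can also give whole counts.

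**Figure D2:**
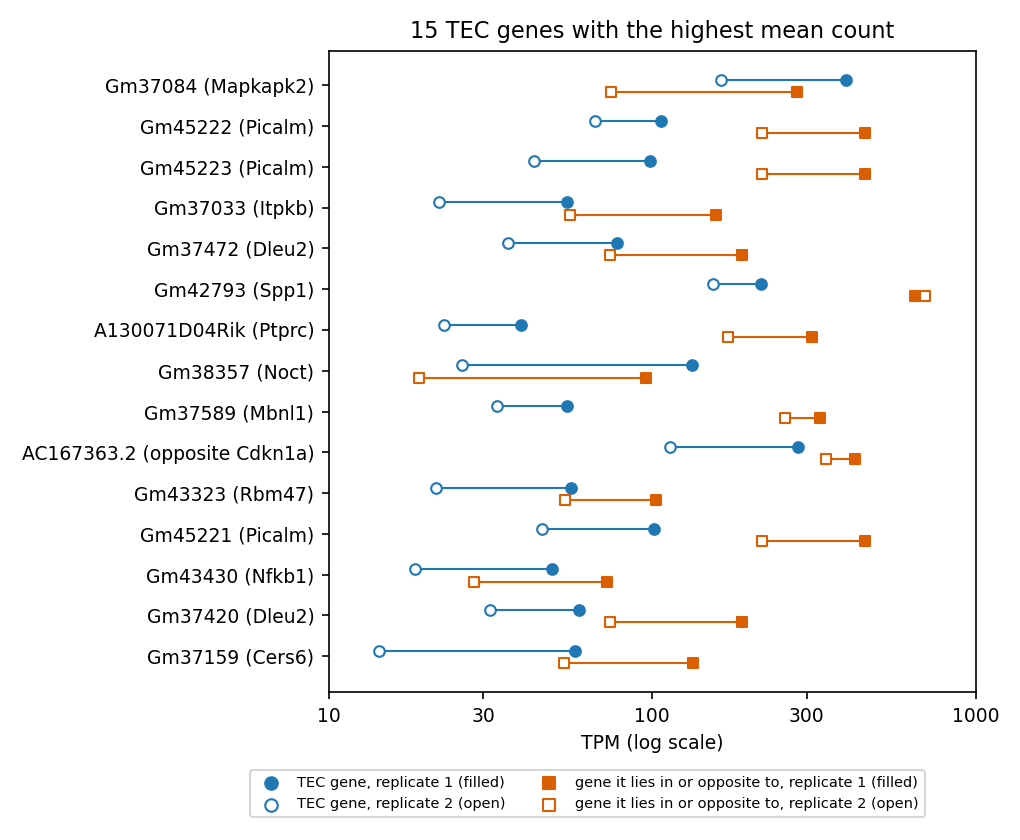
TPM on a log scale (x axis) of the 15 TEC genes with the highest mean count (circles) and of the gene each lies in or opposite to (squares), filled for replicate 1 and open for replicate 2. Only Gm37084 and Gm38357 lie above their host genes in both libraries, and every TEC gene shown is lower in replicate 2.

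Most of the genes sat inside another gene. Of the 149, 119 (79.9%) lay whole within the span of a gene of another class on the same strand, 2 overlapped such a gene in part, 21 (14.1%) lay only opposite a gene, and 7 (4.70%) lay between genes. TEC genes at 50 to under 300 counts were inside a gene in 76.4% of cases and between genes in 7.30%. Over all TEC genes under the limit, most of them with few counts, the shares were 51.1% and 31.1%. The 119 lay in 91 hosts, of which 72 held 1, 13 held 2, 3 held 3 and 3 held 4. By class, 108 of the 119 were in protein-coding genes, 7 in processed transcripts, 2 in lincRNAs and 2 in antisense genes.

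Within their hosts most of the genes lay in introns. Of the 119, 110 (92.4%) overlapped no exon of the host, beside 96.3% of TEC genes at 50 to under 300 counts and 96.7% of all under the limit. An intron number could be given for 99, counted in the host transcript with the most introns among those with an intron around the gene. Of these, 37 (37.4%) lay in the first intron and 3 (3.03%) in the last, and Gm20100, in the only intron of Rab20, is in both counts. The first intron held 29.0% of TEC genes at 50 to under 300 counts and 32.5% of all those under the limit. The median distance from the host's start was 31013 bases, against 46522 and 59913 bases in those sets, and a median of 26.9% of the host's span came before the gene, against 44.8% and 42.6%. The values ran up to 85.5%, with an upper quartile of 53.7%.

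Hosts were long, as were those of other TEC genes. Their spans had a median of 120658 bases, counted per TEC gene, beside 116789 bases for TEC genes at 50 to under 300 counts, 162877 for all other TEC genes and 36409 for protein-coding genes at 300 or more counts. Host TPM had a median of 42.6 per TEC gene, against 19.8 for hosts of TEC genes at 50 to under 300 counts and 0.76 for hosts of all others. These sets were split by the TEC gene's own counts, which may hold reads of the host, so the order of the medians is a description only. TPM of the 149 genes and their hosts rose together in part, with a Spearman rank correlation of 0.55 across 117 pairs whose host had at least 50 counts. Both values come from the same libraries, and several pairs share a host, so this is a description only. A TEC gene had a median of 0.33 of its host's TPM in replicate 1 and 0.30 in replicate 2.

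Few exceeded the host. Among the 117, 9 had a higher TPM than the host in replicate 1 and 9 in replicate 2, and 7 did so in both. Besides Gm37084 and Gm38357 these included cases picked out here after their values were seen. Gm47087 had 12.9 TPM in replicate 1 and 7.72 in replicate 2, against 3.74 and 2.56 for Maml2, a coactivator of Notch signalling. Gm43982 had 44.8 and 14.4 TPM and Gm43984 had 35.9 and 10.1 TPM, both in the second intron of Etv6, an ETS family repressor at 18.01 and 8.47. Gm36527 had 34.3 and 16.3 TPM in Rnf2, a Polycomb ubiquitin ligase gene at 21.8 and 11.4. The last of the 7 was Gm37094, at 1.63 and 2.31 times its host Gm16867. Its sequence is identical to that of Gm20236, which was at 0.49 and 0.17 of its host Slc25a37. Reads of these copies cannot be told apart, so this case rests on an even split.

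The libraries differed in these genes more than in most. Counts were scaled by TMM, a method that sets the bulk of genes equal, and given as the log2 ratio of replicate 2 over replicate 1. The median over the 149 genes was -0.58 (interquartile range -0.95 to -0.25), against -0.12 over all 5479 genes with a mean of at least 300 counts and -0.02 over 10444 genes with at least 50. Of the 149, 129 were below 0 and 20 above, while 3280 of the 5479 genes at 300 or more were below 0. More than 2-fold lower in replicate 2 were 33 of them (22.1%), against 3.34% of all genes at 300 or more and 3.59% at 50 or more. More than 2-fold higher were 3 (2.01%), against 2.97% and 5.42%. By the ratio of TPM, which lowers the median of all genes at 300 or more to -0.54, 71 were more than 2-fold lower, and by the second estimated counts 19 were, beside 16.01% and 1.86% of all genes. The limit was set on the mean of both libraries, and 117 of the 149 reached 300 counts in each. Some genes called lower had under 300 counts in replicate 2, so they passed only through replicate 1 and are part of the 22.1%. They were Gm43721 with 439 and 162 counts, Gm37498, Gm37674, Gm38036, Gm49125, Gm37127 and Gm48996. The rest of them were 4932442E05Rik, Gm37728, AC123927.3, Gm37783, Gm47445 and Gm43788, the last with 678 and 298 counts. All 3 called higher passed only through replicate 2, with 217, 261 and 254 counts in replicate 1. The genes set beside them were also taken by their mean. With 2 libraries of 1 group there is no test, and the ratio compares these libraries and no conditions.

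Other non-coding classes leaned the same way to a lesser degree. At 300 or more counts the median log2 ratio was -0.47 over 49 antisense genes, -0.46 over 32 processed transcripts, -0.22 over 52 lincRNAs and -0.11 over 5105 protein-coding genes. The lincRNAs had 10 genes more than 2-fold lower in replicate 2, a share of 19.2%, close to that of the TEC genes. TEC genes at 50 to under 300 counts had a median of -0.33, with 43 of 466 (9.23%) more than 2-fold lower and 10 higher. The hosts, 91 genes, had a median of -0.42, with 9 (9.89%) more than 2-fold lower and 0 higher. The larger mitochondrial share and the smaller RNA input of replicate 2 went along with these ratios, and their part in them was not tested.

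**Figure D3:**
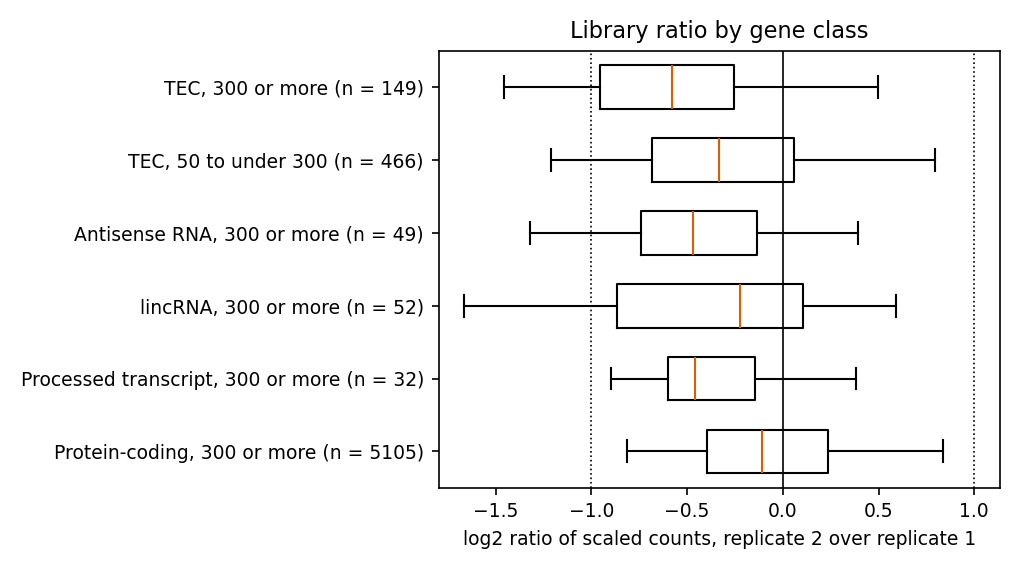
Log2 ratio of TMM-scaled expected counts, replicate 2 over replicate 1 (x axis), by gene class; boxes give the quartiles, the line inside the median and the whiskers the 5th and 95th percentiles of genes, with dotted lines at 2-fold. The TEC genes at 300 or more counts have the lowest median, -0.58, and protein-coding genes the highest, -0.11.

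The ratios overlapped between positions. The 119 genes inside a host on the same strand had a median log2 ratio of -0.64, with 106 below 0, and those over no exon of the host had -0.67. The 9 that overlap an exon of the host had -0.24. All 21 genes that lie only opposite a gene were below 0, with a median of -0.48. The 7 between genes had a median of 0.14 and 2 below 0. That last set is small, and its values ran from -0.84 for Gm44154 to 1.11 for Gm37120, so its spread covers the medians of the others.

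The lowest ratios were -2.08 for Gm20236, Gm37094 and Gm48996, -1.98 for Gm38357 and -1.83 for Gm38236. Gm48996, in the first of 40 introns of Myo10, an unconventional myosin gene, had 1030 counts in replicate 1 and 231 in replicate 2. Its host was lower in replicate 2 as well, with a log2 ratio of -0.90. The highest ratios were 1.38 for Gm43071, 1.11 for Gm37120, 1.02 for C430019N01Rik, 0.97 for Gm37474 and 0.92 for Gm44250. Gm43071 had 217 counts in replicate 1 and 533 in replicate 2, and its host Dram2, a gene of autophagy, stood at 0.97. C430019N01Rik had 254 and 486 counts in Antxr2, a receptor of anthrax toxin at 0.14. Gm37120 and Gm44250 lie between genes, with 261 and 533 counts and with 361 and 647 counts, the second of them 366 bases from Pon3. In the second set of estimated counts Gm37120 came to only 0.65 and Gm44250 to 0.60. There Gm43071 was at 1.44, C430019N01Rik at 1.02 and Gm37474 at 0.87.

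Gm20236 and Gm37094 cannot be told apart by their reads. Their models have identical sequences of 4540 bases at 2 places on the minus strand of chromosome 14, chr14:69277601-69282140 and chr14:69495851-69500390, and each was given 1481 counts in replicate 1 and 332 in replicate 2. The first lies in Slc25a37, the mitochondrial iron importer mitoferrin, and the second in Gm16867. How many of these reads belong to which copy is unknown, and the rank of each rests on an even split. Their shared first 60 bases are shown with both positions.
Gm20236, chr14:69282081-69282140, minus strand: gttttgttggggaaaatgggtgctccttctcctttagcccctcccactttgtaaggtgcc
Gm37094, chr14:69500331-69500390, minus strand: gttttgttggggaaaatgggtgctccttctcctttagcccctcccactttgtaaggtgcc

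Hosts and the TEC genes inside them moved partly together between the libraries. Over the 117 pairs the log2 ratio of the TEC gene minus that of the host had a median of -0.17 (interquartile range -0.46 to 0.11), with 79 below 0. By the ratio of TPM 68 were below 0. In 85 of the 117 pairs both ratios by scaled counts were within 0.5 log2 units of each other. No share for unmatched pairs was worked out, and host ratios alone had an interquartile range of -0.66 to -0.16. The Spearman rank correlation of the pairs was 0.40, again over pairs that share libraries and in part hosts. The rank correlation was -0.04 between the ratio of a TEC gene and its distance from the host's start, and -0.20 with the span of the host.

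In 11 pairs the ratios were more than 1 log2 unit apart, and some of these hosts are named only because of it. The TEC gene was lower in 9. In Cers6, a ceramide synthase gene, Gm37159 had 3340 counts in replicate 1 and 1013 in replicate 2, and Gm38236 had 2065 and 550, while Cers6 had 3832 and 3356. Gm44187 had 1755 and 801 counts in Rab7, a GTPase of late endosomes at 1817.15 and 2408.83. Gm45828 had 1649 and 757 counts in Slc6a6, a taurine transporter at 16801 and 24842. The other 5 were Gm20236 in Slc25a37, Gm43984 in Etv6, Gm48996 in Myo10, Gm47445 in Dse and AC123927.3 in Ap3s1. The reads of Gm20236 cannot be told from those of Gm37094, and the same counts set against the other host, Gm16867 with 311.55 and 92.25 counts, differed by -0.40.

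In 2 pairs the TEC gene was the higher one. Gm37560 had 406 counts in replicate 1 and 615 in replicate 2, while its host Gm10634 had 1489.93 and 564.22. Gm37474 had 317 and 589 counts in Fli1, an ETS transcription factor gene with 1786 and 1309. The calls differed between measures. By TPM, 3 of the 9 lower pairs and both higher pairs stayed more than 1 log2 unit apart, and by the second estimated counts 5 of the 9 and both. The 3 that stayed apart by TPM were Gm44187 at -1.54, Gm20236 at -1.55 and AC123927.3 at -1.02. For Gm37159 the difference from Cers6 was -1.53 by scaled counts and -0.70 by TPM. Other measures also brought in pairs outside the 11. C430019N01Rik was above Antxr2 by 1.03 in TPM, and Gm38357 differed from Noct by -1.07 in estimated counts. In all, 3 pairs were lower and 3 higher by TPM, and 6 lower and 2 higher by estimated counts.

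**Figure D4:**
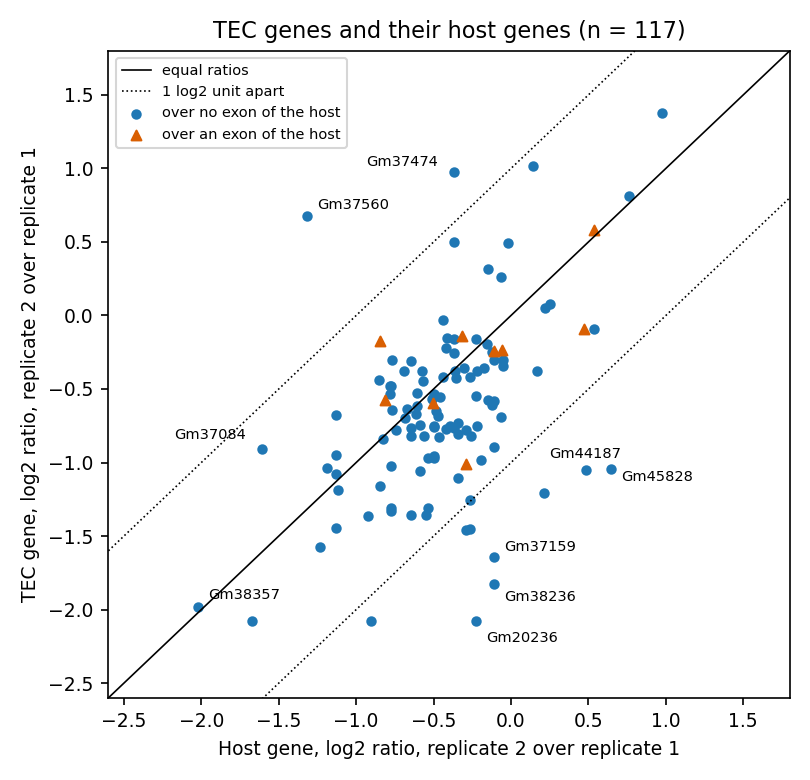
Log2 ratio of TMM-scaled counts, replicate 2 over replicate 1, of the host gene (x axis) and of the TEC gene inside it (y axis) for 117 pairs; the solid line is equality, dotted lines are 1 log2 unit away and triangles are TEC genes over an exon of the host. Points fall on both sides of the solid line with 79 of 117 below it, 9 beyond the lower dotted line and 2 beyond the upper one.

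There were 19 hosts with 2 or more TEC genes, holding 47 in all. The log2 ratios of the genes in Cers6 spanned 1.53 units, those in Fli1 1.23 and those in Picalm 1.04, each with 4 genes. The 3 genes in Itpkb spanned 0.50, those in Plxna2 0.30 and those in Camk2d 0.21. In TPM the gene nearest the host's start was above the farthest one in both libraries in 13 of the 19 hosts and below it in both in 3. The order differed between the libraries in the other 3. The ratio of the farthest gene was below that of the nearest in 7 of the 19 and above it in the others. Among hosts with 3 or more it was above only in Cers6. Among hosts with 2 it was below only in Dock10 and Etv6. A common direction along the hosts was not tested.

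The 6 hosts with 3 or more show the pattern and its exceptions. In Camk2d, a calcium and calmodulin dependent kinase subunit, Gm43011 had 22.7 TPM in replicate 1 and 9.05 in replicate 2, Gm43010 had 17.3 and 7.84, and Gm43009 had 11.0 and 4.35, in order from the start. In Plxna2, a semaphorin receptor, Gm37783 had 22.5 and 8.45, Gm37674 had 19.1 and 5.89, and Gm38036 had 10.04 and 3.08. Both series fall along the gene in each library. In Cers6, Gm37159 at 57.8 and 14.3 TPM and Gm38236 at 40.2 and 8.72 lie in the first intron, 29925 and 44562 bases from the start. Gm37747 at 5.4 and 3.38 TPM and Gm38377 at 9.32 and 3.86 lie 127940 and 156655 bases from it, and both were lower than the first pair in each library.

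Fli1 and Itpkb did not fall steadily. In Fli1 all 4 genes lie in the first intron. Gm37082 had 21.2 TPM in replicate 1 and 22.9 in replicate 2, Gm37474 had 11.7 and 17.6, Gm38346 had 29.8 and 19.2, and Gm38292 had 15.3 and 10.5. The first 2 of these had log2 ratios of 0.50 and 0.97, and the others -0.26 and -0.16, so genes of 1 intron differed in direction. In Itpkb the middle gene, Gm37390, was highest in replicate 1 at 84.0 TPM, while the 3 were between 21.3 and 23.1 in replicate 2.

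**Figure D5:**
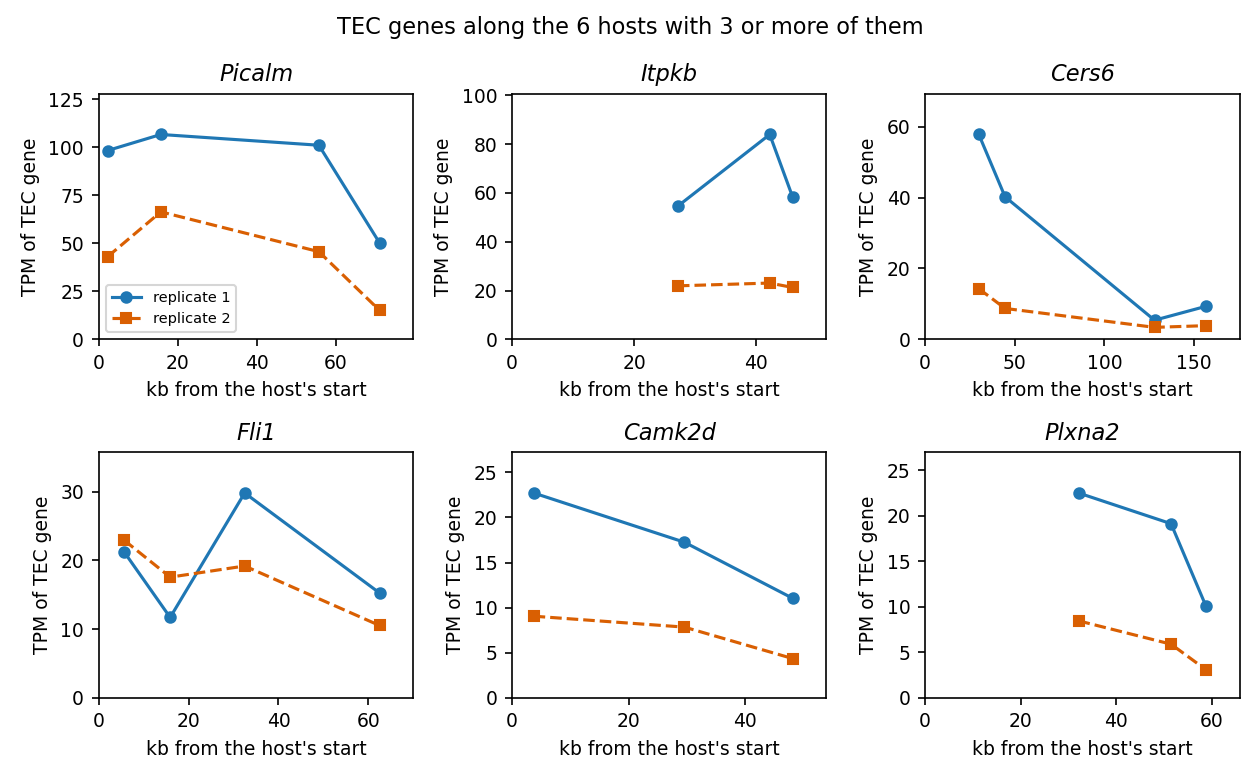
TPM of TEC genes (y axis, from 0) against their distance in kb from the start of the host gene (x axis) in the 6 hosts with 3 or more of them, circles for replicate 1 and squares for replicate 2. Levels fall along Camk2d and Plxna2 in both libraries, and the TEC gene farthest from the start is below the nearest in both libraries in every host shown but Itpkb.

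Genes only opposite another gene were lower than it in most cases. For the 21, TPM was a median of 0.31 of the opposite gene's in replicate 1 and 0.28 in replicate 2, and the log2 ratio between libraries was a median of 0.27 below it (difference -0.27). AC167363.2 had a log2 ratio of -0.91 while Cdkn1a had 0.16. Gm44981, named here after its values were seen, had 2340 counts in replicate 1 and 803 in replicate 2, a log2 ratio of -1.46, while the opposite gene Slc6a6 had 0.64. The longest model, 9330162G02Rik with 30942 bases opposite Ube3a, a ubiquitin ligase gene, had 1515.81 and 1404.36 counts but only 2.88 and 2.19 TPM. Without knowledge of strand use, reads of the opposite gene may be part of these values.

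Of 175 genes in 7 lists for this treatment, these cells and nuclear RNA, 4 (2.29%) had 1 of the 149 inside them, opposite them or, as the nearest coding gene, within 5 kb. Over listed genes at 300 or more counts the share was 4 of 154 (2.60%), near that of all such genes of other classes than TEC, 109 of 5329 (2.05%). No TEC gene of the 149 was at any of 34 immediate-early genes, 25 early cytokine genes, 21 interferon response genes or 29 macrophage identity and lysosome genes. Of 19 genes of NF-kB and its feedback, 1 had such a gene, Nfkb1 with Gm43430. Of 22 genes of TLR4 signalling, 1 did: Irak2, a kinase below Toll-like receptors, with Gm43963 on the other strand at 1029.16 and 725 counts. Irak2 had a log2 ratio of -1.38 and Gm43963 of -0.42. Of 25 nuclear RNA processing genes 2 did. Gm43980 had 700 and 480 counts opposite Tra2a, a splicing regulator, and Gm43362 had 468 and 299 counts in the first intron of Srsf11, an SR protein gene, at 0.06 and 0.05 of its TPM.

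By chromosome, 29 of the 149 (19.5%) were on chromosome 1, 23 on chromosome 6, 18 on chromosome 3 and 12 on chromosome 5, against 14.8%, 9.43%, 10.02% and 15.5% of all TEC genes. Chromosome 6 held 15.4% of the 149 and chromosome 5 held 8.05%. The annotation itself is uneven, since TEC genes are listed mostly on a few chromosomes.

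The second transcript tables, made from the reads without the alignment, were compared on genes chosen by the expected counts, which are the denominator here. The log2 of estimated over expected counts, each as a share of its library total, had a median of -0.13 over the 149 (range -0.36 to 0.98), equal to the median of -0.13 over all genes at 300 or more. TEC genes at 50 to under 300 counts had 0.12 and those at 50 to under 100 had 0.24. Since genes were sorted by that denominator, the order of these medians is a description only, and on a limit scaled to their totals the second tables took in 243 TEC genes. The largest excess of estimated counts was 0.98 for Gm37082, 0.91 for Gm47445 and 0.71 for Gm48766. The lowest values were -0.36 for 4932442E05Rik, -0.34 for 6430511E19Rik and -0.34 for Gm42793. 6430511E19Rik lies in Gm26944 and opposite Pcf11, a cleavage and termination factor gene at 121.1 and 52.1 TPM. It was itself at 8.77 TPM in replicate 1 and 5.67 in replicate 2.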

How the data were processed

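Total RNA libraries of 1 group, 2 replicates, were analysed. The deposited gene tables give expected counts and TPM, and the deposited second transcript tables give estimated counts and TPM, all on mm10 with GENCODE M21, per the deposited text files; the programs and any use of strand are not given in those sources. The authors derived the gene tables from a transcriptome alignment and the second tables from the reads directly, per the same text files. Effective length, another column as deposited by the authors, was read for no printed value. Numbered features without a gene name and spike-ins held 1.19% and 0.213% of expected counts and stayed out of library sizes.

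Members, positions, introns and host genes came from the GENCODE M21 annotation of mm10, and sequences from its transcripts. A host is a gene of another class on the same strand whose span holds the whole member; where several did, the one with the most counts was taken. Rounded expected counts were scaled by the TMM factors of edgeR 4.0.16 under R 4.3.3, over genes with a mean of at least 10 counts. Size factors of DESeq2 1.42.0, library size, TPM ratios and estimated counts were alternatives, as were limits of 100 and 1000 counts. The ratio script was tested on simulated data. No p-value was computed, since there is 1 group. Estimated counts summed to 21932480 and 25815351. Wilson intervals used a level of 95% and cover counting error only.

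The members and lists were chosen with earlier results of these data known, including that TEC genes beyond 2-fold were mostly lower in replicate 2, so that direction has no independent support here. Named were the 15 members with the highest mean count, the 5 with the highest mean TPM, the 5 highest and 5 lowest ratios, the 3 highest and 3 lowest estimated over expected counts, the 3 either side of the limit, the 3 longest and 3 shortest, those at a listed gene, and loci with 3 or more in a host. A list of erythroid markers is not reported here.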

Additional observations from a re-analysis of the deposited data

How the results depend on the processing

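The number of genes follows the limit: 408 had a mean of at least 100 counts, 39 of at least 1000, and 122 to 171 reached 300 when either library was left out. With estimated counts 402 reached 300, and 243 reached that limit scaled to the larger totals, an alternative chosen after seeing the data. The mean share of counts was 0.731% at the limit of 1000 and 0.858% to 1.37% when either library was left out. The median log2 ratio was -0.57 by library size, -0.56 by DESeq2 size factors, -0.59 by TMM over all genes, -0.47 by estimated counts, -0.96 by TPM, -0.46 at the limit of 100, -0.82 at 1000 and -0.57 with the identical pair counted once. TPM also moved the median of all genes at 300 or more from -0.12 to -0.54, so the gap between the 149 and all genes was -0.41 by TPM, -0.43 by estimated counts and -0.45 by TMM. By TPM 71 were more than 2-fold lower and 0 higher, beside 16.01% and 0.931% of all genes, and by estimated counts 19 were lower, beside 1.86%. The median difference from hosts was -0.10 by TPM, added after seeing the data. The median log2 of estimated over expected counts was -0.055 at the limit of 100, -0.20 at 1000 and -0.11 to -0.13 when either library was left out. None of these values changed sign. No paired analysis was possible because there is 1 group. Ratios need both libraries, so neither could be left out of them. With 2 libraries, differences between genes near the limit rest on 1 value each.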
